A study of Mus musculus with 12 samples.

Results

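Adgrg7, Mcemp1, Cd300lf, Adam33, Mpp7, Tmem245 and Polr2h are 7 mouse genes whose transcript levels moved one way with metformin in Dnmt3a-mutant progenitors and, by the fitted sign, the other way in wild-type progenitors. For Mpp7 and Mcemp1 the wild-type effect was smaller than its standard error (SE), so an opposite response is not shown for them. The 7 are part of the 54532 genes in the deposited table. A filter on low counts kept 15003 genes, of which 66.2% had fitted effects of opposite sign in the 2 genotypes. All 7 passed this filter. They were chosen by measured values of these libraries, namely some of the smallest p-values for the metformin effect in mutant cells or for the difference between that effect and the one in wild-type cells, among genes of no larger family already singled out. Those effects, and the wild-type effect that enters the difference, are therefore given here as a description only, with no test. Within each comparison all tested genes were ranked by p, and each member's better rank over the pair of comparisons was between 4 (Adgrg7) and 19 (Adam33). Adam33 had a difference of −1.38 ± 0.400 (log2, SE), and the next gene in that comparison, Unc5a at rank 20, had −1.86 ± 0.541. Better-ranked genes of that comparison are not all members, so rank 19 marks no cut. No gene of the 15003 passed an adjusted p of 0.05 in the metformin comparison in the mutant, in that in wild type or in their difference (0% called in each, edgeR quasi-likelihood test). At an unadjusted p under 0.05 the numbers were 364, 604 and 932, and DESeq2 called 0, 1 and 0.

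The cells were haematopoietic stem and progenitor cells, sorted from fresh bone marrow as lineage-negative, cKit-positive cells and not cultured. Wild-type (WT) mice were Dnmt3a+/+ and mutant (RH) mice were Dnmt3afl-R878H/+, with 1 conditional mutant allele. Both genotypes were on C57BL/6 and carried Mx1-cre, an interferon-inducible recombinase that is active in many cell types besides blood cells. Mice received vehicle (VEH) or metformin (MET) for 1 month within a competition experiment, and the study asked how the drug acts on mutant progenitors. Genotype and treatment together make 4 groups of 3 libraries, named by both (RH MET for the metformin-treated mutant, for example). The labels state 2 animals per treatment group and do not tie libraries to animals, and they give no age, so any p-value here measures the spread between libraries, which may be partly technical.

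Levels below are CPM, the count of a gene scaled to a common library size, after TMM scaling, which corrects each library for depth and composition. In bulk RNA of this kind, more cells of a type and more RNA per cell cannot be told apart. Total counts were 13359583 to 21938003 per library. The libraries came in 2 deposit sets of 6, called set 1 and set 2, and the fit carried a term for set. Both sets hold libraries of all 4 groups but are not balanced. In WT VEH and RH MET, libraries 1 and 2 are of set 1 and library 3 is of set 2. In WT MET and RH VEH, library 1 is of set 1 and libraries 2 and 3 are of set 2. Set is thus partly confounded with the difference of the metformin effects. WT MET 2 and RH VEH 2, both of set 2, took 33.3% and 40.8% of their counts from the mitochondrial genome, against 1.57% to 4.32% in the other 10 libraries. The fitted metformin effects below are given with and without them. Dnmt3a stood at 39.7 to 59.9 CPM over the 12 libraries; its transcript level does not check a point mutation. The markers of the gate were present, with Kit at 118 to 200 CPM and Cd34 at 53.3 to 158 CPM.

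Metformin is a biguanide that inhibits respiratory complex I and is used to lower blood glucose. DNMT3A places methyl groups on cytosines of CG dinucleotides, and changes at the residue altered here are common in human clonal haematopoiesis and acute myeloid leukaemia. The 7 genes have unlike roles. ADGRG7 is an orphan adhesion G protein-coupled receptor. MCEMP1 is a small membrane protein of mast cells, monocytes and neutrophils. CD300LF is an inhibitory immunoglobulin-fold receptor of myeloid cells that signals through tyrosine-based motifs and is also the entry receptor of murine norovirus. ADAM33 is a membrane-anchored metalloprotease, MPP7 a scaffold of the MAGUK family that organises cell polarity complexes, TMEM245 a multi-pass membrane protein, and RPB8, the product of Polr2h, a subunit shared by all 3 nuclear RNA polymerases.

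The deposited coordinates (mm10) place Adgrg7 (ENSMUSG00000022755) on chromosome 16 at 56724609 to 56795855 and Polr2h (ENSMUSG00000021018) on the same chromosome at 20717665 to 20722267. Tmem245 (ENSMUSG00000055296) lies on chromosome 4 at 56866923 to 56947437, Adam33 (ENSMUSG00000027318) on chromosome 2 at 131050591 to 131063814 and Mcemp1 (ENSMUSG00000013974) on chromosome 8 at 3665754 to 3669259. Cd300lf (ENSMUSG00000047798) lies on chromosome 11 at 115116214 to 115133992. Polr2h and Mcemp1 are on the plus strand and the others on the minus strand. The position of Mpp7 is given with its values.

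Because DNMT3A acts on CG dinucleotides, the 250 bases before the RefSeq transcription start (GRCm38.p6) are shown for 4 of the 5 genes whose fitted level was higher with metformin in RH. They read 5′ to 3′ on the gene's own strand, with each CG in capitals. The windows are chr16:56795859-56796108 (minus strand) for Adgrg7, chr8:3665512-3665761 (plus) for Mcemp1, chr11:115133993-115134242 (minus) for Cd300lf and chr4:56947430-56947679 (minus) for Tmem245.
Adgrg7: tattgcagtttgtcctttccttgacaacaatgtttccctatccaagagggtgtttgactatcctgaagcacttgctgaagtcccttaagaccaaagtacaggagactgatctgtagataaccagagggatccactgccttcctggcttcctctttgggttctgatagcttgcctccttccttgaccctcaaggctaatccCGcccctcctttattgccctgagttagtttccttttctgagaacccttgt
Mcemp1: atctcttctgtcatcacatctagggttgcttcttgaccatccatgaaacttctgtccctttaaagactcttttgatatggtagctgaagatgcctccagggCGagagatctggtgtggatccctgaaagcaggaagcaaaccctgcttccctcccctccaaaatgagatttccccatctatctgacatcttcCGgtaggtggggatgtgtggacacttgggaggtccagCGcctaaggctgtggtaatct
Cd300lf: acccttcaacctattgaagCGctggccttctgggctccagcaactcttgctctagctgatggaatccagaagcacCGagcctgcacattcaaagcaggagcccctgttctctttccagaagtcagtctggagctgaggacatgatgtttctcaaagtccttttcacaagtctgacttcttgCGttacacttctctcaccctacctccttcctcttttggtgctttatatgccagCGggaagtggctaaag
Tmem245: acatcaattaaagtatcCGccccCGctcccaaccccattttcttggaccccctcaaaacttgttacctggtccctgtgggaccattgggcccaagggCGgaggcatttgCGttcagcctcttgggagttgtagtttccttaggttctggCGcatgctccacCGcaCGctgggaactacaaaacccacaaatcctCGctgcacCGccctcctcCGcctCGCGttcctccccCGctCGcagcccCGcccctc

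The motif counted was CG, which reads the same on both strands; 92.1% of 32851 RefSeq windows of this length hold at least 1, with a median of 6. Adgrg7 had 1 CG, Mcemp1 3 and Cd300lf 4, all under that median, while Tmem245 had 15. Of the genes whose fitted level was lower with metformin in RH, Polr2h has 2 listed starts, with 28 and 12 CG in their windows. Windows with as few CG as that of Adgrg7 made up 18.8% of all, and those with as few as the first Polr2h window 93.2%. The table held windows for 5 of the 7 members. Methylation was not measured in these libraries, so these counts describe sequence only.

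Adgrg7 was highest in the metformin-treated mutant. Its level was 30.1, 31.4 and 26.3 CPM in RH MET 1, 2 and 3, against 9.64, 12.8 and 21 CPM in RH VEH 1, 2 and 3. Every RH MET library was above every RH VEH library. In wild type it was 14.8, 24.5 and 32 CPM in WT VEH and 17.9, 11.7 and 20.1 CPM in WT MET, so those groups overlapped. The fitted log2 fold change with metformin was 1.14 ± 0.326 (SE, n = 3 per group) in RH and −0.57 ± 0.309 in WT, a difference of 1.71 ± 0.460. Without WT MET 2 and RH VEH 2 the effects were 1.08 ± 0.315 in RH and −0.38 ± 0.300 in WT, and the difference was 1.45 ± 0.438. By group mean the order was RH MET (29.3 ± 2.67 CPM, SD), then vehicle-treated WT (23.8 ± 8.64), WT MET (16.6 ± 4.37) and last RH VEH (14.5 ± 5.84). Neighbours in this order overlapped in every case.

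Mcemp1, the small myeloid membrane protein, had the same order of group means at a lower level. It stood at 11.4, 9.6 and 14.8 CPM in RH MET and 5.38, 3.82 and 7.53 CPM in RH VEH, with no overlap. WT VEH had 5.35, 7.22 and 12.7 CPM and WT MET 6.66, 5.27 and 11 CPM. The wild-type groups overlapped over most of their range, and in each of the 4 groups the highest value came from library 3, a library of set 2. The fitted effect of metformin was 1.21 ± 0.336 in RH and −0.24 ± 0.330 in WT on the log2 scale. Without WT MET 2 and RH VEH 2 the mutant value was 1.00 ± 0.230. The wild-type value was smaller than its SE, and without the same libraries it was −0.04 ± 0.224. Without WT VEH 3 it was 0.07, so the wild-type value had no stable sign.

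Cd300lf had the largest difference between the metformin effects among the 7 genes, at 2.19 ± 0.591 on the log2 scale. Its level was 7.59, 7.88 and 12.2 CPM in RH MET and 3.59, 2.87 and 8.9 CPM in RH VEH. It was 2.98, 5.12 and 12.6 CPM in WT VEH and 2.65, 3.14 and 5.53 CPM in WT MET. Metformin and vehicle groups overlapped in both genotypes, and library 3 was well above the others in every group. With the set term, the fitted effects were 1.15 ± 0.412 in RH and −1.04 ± 0.410 in WT. Without WT MET 2 and RH VEH 2 they were 0.86 ± 0.298 and −0.87 ± 0.304. With all 12 libraries but no set term they were 0.83 ± 0.527 and −0.86 ± 0.535, and the difference was 1.69 ± 0.751. Without WT VEH 3, the highest of all 12 libraries, the wild-type effect was −0.61 ± 0.503. The smallest read counts of the gene were 24 in RH VEH 2 and 31 in WT MET 2.

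Mpp7 (ENSMUSG00000057440, chromosome 18, 7347962 to 7626863, minus strand) was higher in every RH MET library than in any of the other 9. It stood at 17.9, 20.7 and 18.8 CPM in RH MET. The rest ranged from 8.39 CPM (WT VEH 1) to 13.7 CPM (WT VEH 2), with 11.8, 11.2 and 9.64 CPM in RH VEH and 10.4, 9.74 and 11.6 CPM in WT MET. How many of all tested genes had RH MET above all the rest was not counted. The choice of this gene used the same libraries. The fitted effect of metformin was 0.80 ± 0.210 in RH and −0.06 ± 0.212 in WT, a 1.75-fold higher level in the mutant and a value within its SE in wild type. The difference between these effects was 0.87 ± 0.306, and 0.86 ± 0.313 without WT MET 2 and RH VEH 2. Without those libraries the effects were 0.83 ± 0.220 in RH and −0.03 ± 0.220 in WT. An opposite response is thus not shown for this gene, whose WT VEH mean was 11.1 ± 2.64 CPM and whose WT MET mean was 10.6 ± 0.945 CPM (SD). Its wild-type value changed sign, to 0.08, without WT VEH 2.

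Tmem245 differed the other way about, with the larger metformin effect in wild type. It was 19.2, 27.4 and 31.2 CPM in WT VEH and 16.5, 18 and 20 CPM in WT MET, and only WT VEH 1 fell within the WT MET range. In RH it was 18.5, 23.4 and 26 CPM under vehicle and 24.6, 25 and 27 CPM under metformin, again with overlap. The fitted log2 effects were −0.60 ± 0.169 in WT and 0.29 ± 0.171 in RH. Leaving out WT MET 2 and RH VEH 2 moved them to −0.57 ± 0.180 and 0.27 ± 0.178.

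Tmem245 also hosts a microRNA gene, whose mature arms are shown with the seed (bases 2 to 8) in capitals. The Mir32 hairpin (RefSeq, GRCm38.p6) lies at chr4:56895229-56895298 on the same strand as Tmem245 and overlaps none of its GENCODE M21 exons. It had 0 counts in all 12 libraries in the table of genes, and these libraries do not measure mature microRNAs.
mmu-miR-32-5p: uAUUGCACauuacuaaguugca
mmu-miR-32-3p: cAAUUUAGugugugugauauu

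Adam33 and Polr2h had the reverse pattern in the fit, lower with metformin in RH and higher in WT. Adam33 stood at 37.9, 42.3 and 21.3 CPM in RH VEH and 18.8, 16.8 and 20.8 CPM in RH MET. The RH MET libraries were all below RH VEH, though RH VEH 3 was close to RH MET 3. WT VEH had 19.9, 16.1 and 15.2 CPM and WT MET 19.5, 34.4 and 22.8 CPM, with WT MET 1 below WT VEH 1. The fitted effects were −0.83 ± 0.270 in RH and 0.55 ± 0.280 in WT. The highest RH VEH library (RH VEH 2) and the highest WT MET library (WT MET 2) were those with a high mitochondrial share, and without both the effects were −0.66 ± 0.214 and 0.33 ± 0.221.

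Polr2h had the highest level per transcript length of the 7 genes, at a mean of 29.2 CPM per kilobase of deposited gene length, against 1.22 (Cd300lf) to 7.79 (Adgrg7) for the others. For Mpp7 that length, 4975 bases, is shorter than the 20164 exonic bases of GENCODE M21, so its value of 2.60 depends on the annotation. Polr2h stood at 33.5, 33.5 and 31.2 CPM in WT VEH and 49.2, 64.3 and 45.5 CPM in WT MET. Every WT MET library was above every WT VEH library. RH VEH was wide, at 59.6, 70 and 31.6 CPM, and RH MET narrow, at 37.1, 38.1 and 35.7 CPM, so RH VEH 3 lay below all 3 treated mutant libraries. The fitted effects were 0.72 ± 0.247 in WT and −0.55 ± 0.243 in RH. Without WT MET 2 and RH VEH 2 they were 0.56 ± 0.177 and −0.31 ± 0.176. The difference fell from −1.27 ± 0.356 to −0.88 ± 0.250.

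**Figure D1:**
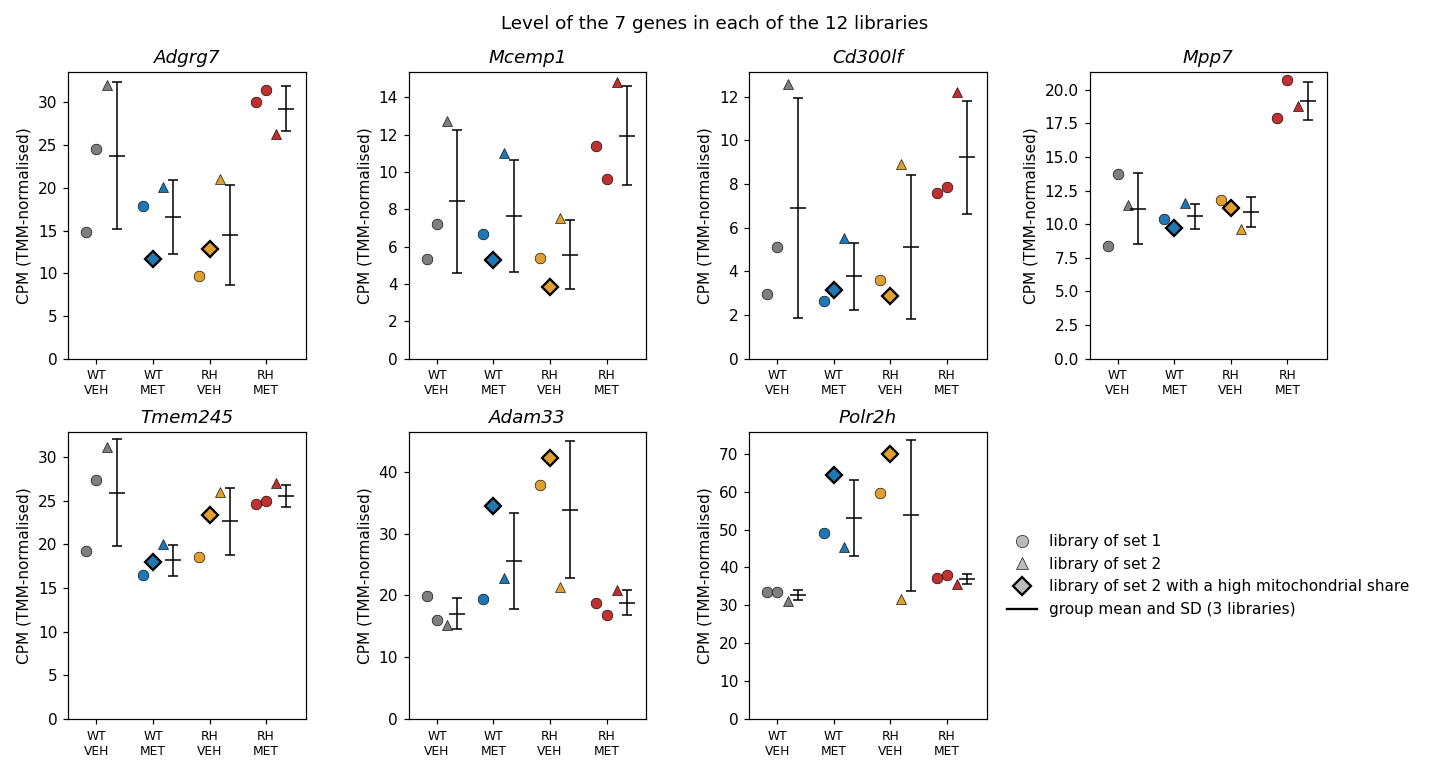
Level of each gene in TMM-normalised CPM (vertical axis from 0) in the 4 groups of 3 libraries; circles are libraries of set 1, triangles of set 2, outlined diamonds WT MET 2 and RH VEH 2, and bars the group mean and SD. Mpp7 in RH MET sits at 17.9 to 20.7 CPM, above the 9 other libraries, while in Polr2h the diamonds, at 64.3 and 70 CPM, are the highest points but 1 circle lies above a diamond in Adam33.

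Counted over the members, RH MET lay wholly above RH VEH for 3 of 7 (4.11% of all tested genes did so) and wholly below it for 1 (2.81%). WT MET lay wholly above WT VEH for 1 (4.98%) and wholly below it for 0 (4.40%). For 0 of the 7 were the treatment groups apart in both genotypes, as they were, in opposite directions, for 0.207% of all genes either way. Across genotypes, RH MET lay wholly above WT MET for Adgrg7, Tmem245, Mpp7 and Cd300lf, 4 of 7 (7.97% of all genes), and wholly below it for Polr2h (8.94%). Under vehicle RH lay wholly above WT for Adam33 alone (2.71%) and wholly below it for 0 of 7 (3.23%). The fitted effects had opposite signs in the 2 genotypes for 7 of 7 genes and for 66.2% of all genes tested. For 5 of the 7 both effects exceeded their own SE, the exceptions being Mpp7 and Mcemp1 in wild type. These comparisons share the libraries by which the genes were chosen, so the counts only describe the choice.

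**Figure D2:**
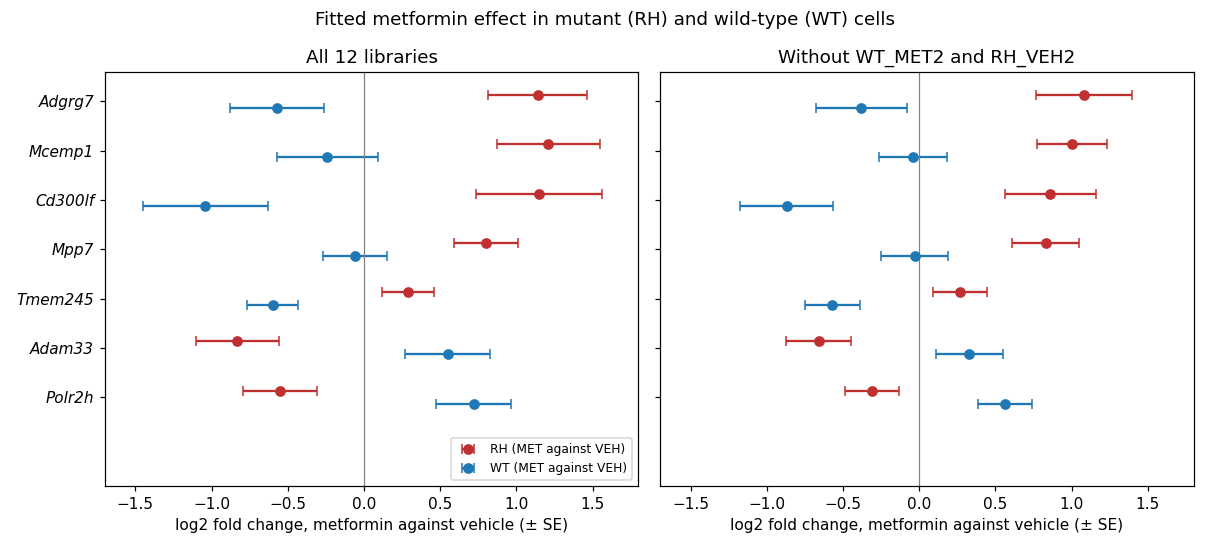
Fitted log2 fold change of metformin against vehicle (horizontal axis, points with SE bars) in RH (red) and WT (blue), with all 12 libraries on the left and without WT MET 2 and RH VEH 2 on the right. The 5 upper genes have positive RH values and the 2 lower ones negative RH values in both panels; the WT values of Mpp7 and Mcemp1 span 0.

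The deposit sets were read separately, as differences of mean log2 CPM. In set 1 the WT MET and RH VEH values are those of single libraries (WT MET 1 and RH VEH 1). In set 2 this holds for WT VEH and RH MET (WT VEH 3 and RH MET 3). The metformin effect in RH minus that in WT had the same sign in both sets for all 7 genes. It was 1.75 in set 1 and 1.74 in set 2 for Adgrg7, 0.90 and 0.85 for Tmem245, 0.74 and 0.95 for Mpp7, −1.21 and −1.40 for Adam33, and −1.22 and −1.19 for Polr2h. The sets differed more for the myeloid pair, at 0.85 and 2.17 for Mcemp1 and 1.62 and 2.82 for Cd300lf. In set 1 the wild-type part was near 0 for Adgrg7 (−0.09) and positive for Mcemp1 (0.10), while in set 2 it was −1.06 and −0.73. Both sets took part in the choice of the genes, so their agreement in sign is no replication. The share of all genes with the same sign in both sets was not counted. Both libraries with a high mitochondrial share are in set 2.

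The genotype effect over both treatments was the comparison that the choice of genes did not use, since with equal groups, and apart from the set term, it is orthogonal to the metformin effect in RH and to the difference. It shares their libraries and their estimate of the spread. No member passed the threshold in it, against 0.00667% of all genes (1 of 15003, edgeR quasi-likelihood test with Benjamini-Hochberg adjustment). All 7 fitted values were positive, between 0.05 and 0.51. Mpp7 was at 0.41 ± 0.145 (unadjusted p = 0.0153, adjusted p = 1 by edgeR) and Cd300lf at 0.51 ± 0.284 (unadjusted p = 0.0984, adjusted p = 1 by edgeR). Adam33 was at 0.27 ± 0.188, Tmem245 at 0.15 ± 0.116, Polr2h at 0.09 ± 0.168, and Adgrg7 and Mcemp1 at 0.05 ± 0.216 and 0.05 ± 0.231. Mpp7 was the 1 member with an unadjusted p under 0.05 by edgeR, against 397 of all genes (2.65%). DESeq2 also had 1 such member, against 478 of all genes, and called 17 genes, none of them a member. For Mpp7 the vehicle means were 11.1 CPM in WT and 10.9 CPM in RH, and RH MET, at 19.1 CPM, was the group that stood higher. Its genotype value thus rests on libraries that took part in its choice and shows no difference under vehicle. Adgrg7, Mcemp1 and Polr2h changed sign in the genotype comparison under at least 1 alternative.

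Markers of neutrophils moved alongside several of these genes, while other mature myeloid lists did not all do so. The 16 late neutrophil genes listed, among them Ltf, Camp and S100a8, summed to 3210 to 4840 CPM in RH MET and 667 to 2760 CPM in RH VEH, with no overlap. In wild type they summed to 1420 to 4930 CPM under vehicle and 701 to 3120 CPM under metformin. In set 1 the sum was higher in WT MET 1 (1980 CPM) than in WT VEH 1 and 2 (1420 and 1810 CPM). The highest vehicle sum (WT VEH 3) and the lowest metformin sum (WT MET 2) were both of set 2. A lower wild-type sum with metformin was thus not seen in both sets. All 16 had a higher fitted value with metformin in RH (median 1.31) and a lower one in WT (median −0.59), and none passed the threshold. All 10 primary granule genes, such as Mpo and Elane, had the same signs with smaller medians (0.28 and −0.20), and their sums overlapped, at 2790 to 4030 CPM in RH MET and 1680 to 3950 CPM in RH VEH. WT MET 2 and RH VEH 2 were the lowest libraries of their groups for both lists and for monocyte genes. Without them late neutrophil genes summed to 1520 to 2760 CPM in RH VEH, still below RH MET, and to 1980 to 3120 CPM in WT MET.

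No gene of the other lists passed the threshold either. The 13 monocyte genes summed to 743 to 1220 CPM in RH MET and 318 to 1130 CPM in RH VEH, with 11 of 13 higher in the fit in RH and 10 of 13 lower in WT, the signs of the neutrophil lists. Macrophage and dendritic genes did not share those signs. Of 11 macrophage genes, 3 were higher and 8 lower with metformin in RH (median −0.18), and all 11 were lower in WT. Of 9 dendritic genes, 1 was higher and 8 lower in RH, and 7 were higher and 2 lower in WT. The 13 mast, basophil and eosinophil genes, of which Tpsab1 had 0 counts throughout, summed to 1170 to 2260 CPM in RH MET and 1140 to 1620 CPM in RH VEH. All 16 T and NK cell genes had a lower fitted value with metformin in RH (median −1.13), at 63.3 to 131 CPM in RH MET and 115 to 181 CPM in RH VEH, and 11 of 16 a higher one in WT (median 0.24). Megakaryocyte genes reached 2140 CPM in WT MET 2 and 1680 CPM in RH VEH 2, against 610 to 1170 CPM in the other libraries. Per 1000 CPM of late neutrophil genes, a ratio chosen after the values were seen, Mcemp1 stood at 2.95 to 3.55 CPM in RH MET and 2.73 to 5.73 CPM in RH VEH, and Cd300lf at 2.36 to 2.52 and 2.36 to 4.3 CPM. On that ratio RH MET overlapped RH VEH for both genes. Adgrg7 (5.43 to 9.66 CPM in RH MET, 6.34 to 19.2 CPM in RH VEH) and Mpp7 (3.89 to 6.36 and 3.49 to 16.8 CPM) overlapped too. Adam33 (4.31 to 5.85 and 7.73 to 63.4 CPM) and Tmem245 (5.59 to 7.7 and 9.41 to 35.1 CPM) lay wholly lower in RH MET. Polr2h overlapped, at 7.38 to 11.7 and 11.4 to 105 CPM. The ratio moves with the marker sum of each library. That sum was itself wholly higher in RH MET than in RH VEH, so dividing by it lowers any gene in RH MET. The ratio therefore cannot show what part the marker shifts have in the levels of the 7 genes, and that part was not tested.

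**Figure D3:**
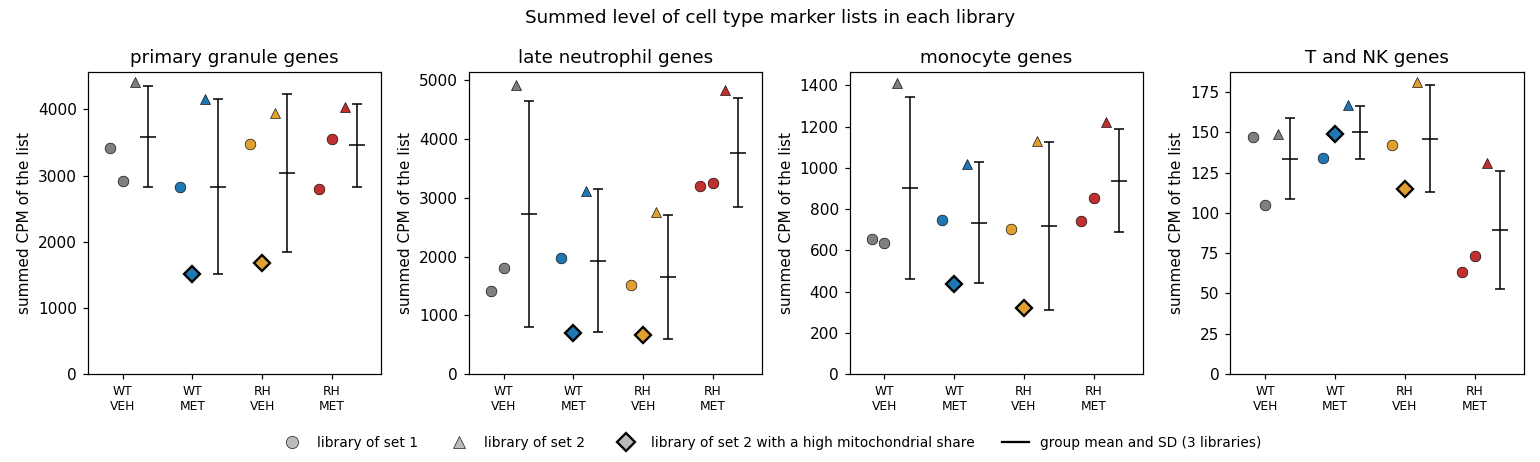
Summed CPM (vertical axis from 0) of 4 marker lists in each library, with symbols as in the plot of gene levels and bars for the group mean and SD. Late neutrophil genes in RH MET (3210 to 4840 CPM) lie above RH VEH, and the diamonds are the lowest of their groups in the first 3 panels.

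The genes whose levels ran closest to each member were named by Pearson's r of log2 CPM, centred within each set, over the 12 libraries. These values are descriptive, since the libraries share depth, groups and marker shifts. Mcemp1 ran with neutrophil genes, Camp (r = 0.949, Spearman's rho = 0.874), which encodes the granule peptide cathelicidin, S100a9 (0.948, rho 0.958), a calprotectin subunit gene, and G0s2 (0.944, rho 0.895), a lipase inhibitor gene. Camp and S100a9 are also on the late neutrophil list. Without WT MET 2 and RH VEH 2 the r values were 0.900, 0.942 and 0.905 over 10 libraries. Cd300lf ran with Siglece (r = 0.970, rho 0.979), another inhibitory receptor gene of myeloid cells, Acvrl1 (0.948, rho 0.958), which encodes a TGF-beta family receptor, and Nin (0.944, rho 0.867), which encodes the centrosomal protein ninein.

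Adgrg7 was closest to Jmjd8 (r = 0.941, rho 0.937), Pag1 (0.939, rho 0.923), which encodes a membrane adaptor of Src family kinase control, and the amino acid transporter gene Slc38a1 (0.933, rho 0.881). Tmem245 was closest to the histone demethylase gene Phf2 (r = 0.949, rho 0.930), the DNA-dependent protein kinase gene Prkdc (0.940, rho 0.916) and Polr2a (0.940, rho 0.937), which encodes the largest subunit of RNA polymerase II. Polr2h ran with Abhd10 (r = 0.959, rho 0.937), Dtwd1 (0.955, rho 0.916) and Fam192a (0.952, rho 0.923). Adam33 ran with Mcts1 (r = 0.966, rho 0.972), a translation re-initiation factor gene, the ribosome maturation gene Sbds (0.958, rho 0.951) and Xlr4a (0.956, rho 0.762). Mpp7 had the least close neighbours, Btnl9 (r = 0.901, rho 0.888), Fam8a1 (0.863, rho 0.748) and the disulfide oxidase gene Ero1l (0.851, rho 0.839).

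Among the members themselves the same measure was 0.895 for Adam33 with Polr2h, 0.873 for Mcemp1 with Cd300lf and 0.858 for Adgrg7 with Cd300lf. It was −0.892 for Adgrg7 with Adam33. Mpp7 stood most apart, at −0.202 with Polr2h and 0.566 to 0.677 with the 4 other genes that were higher with metformin in RH. Shared choice on the same contrast raises these values, so they describe the members only.

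Relatives of 5 of the members were read from lists of their families, and no relative passed the threshold in any metformin comparison. Of 9 tested CD300 genes and phosphatases that bind their tyrosine motifs, 7 had a positive difference between the metformin effects and 2 a negative one (median 0.27, against −0.02 for all genes). The gene with the smallest p was Cd300ld, an activating member of the same cluster, at 1.17 ± 0.533 in RH and −0.90 ± 0.509 in WT, with mean levels of 1.57 to 2.30 CPM. Cd300lb followed, at 0.67 ± 0.610 and −0.67 ± 0.607. The phosphatase gene Inpp5d was at 0.05 ± 0.138 and −0.22 ± 0.136. Cd300a, the other inhibitory receptor of the cluster, had group means of 15.2 to 15.3 CPM and a difference of 0.25 ± 0.410.

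Of 9 tested ADAM genes besides Adam33, 6 had a positive difference and 3 a negative one (median 0.20), whereas Adam33 was at −1.38. Adam19 was at 0.27 ± 0.296 in RH and −0.76 ± 0.297 in WT, Adam8, which encodes a leukocyte protease, at 0.58 ± 0.457 and −0.62 ± 0.448, and Adam9 at 0.27 ± 0.334 and −0.40 ± 0.325. These 3 had the opposite signs to Adam33 in both genotypes. Of 16 adhesion receptor genes 10 had a positive and 6 a negative difference (median 0.21). Adgrg5 ran against Adgrg7, at −0.86 ± 0.414 in RH and 0.73 ± 0.423 in WT, while Adgre5, the gene of CD97, was at 0.31 ± 0.214 and −0.32 ± 0.209, and Adgre4 at 0.63 ± 0.763 and −1.27 ± 0.776.

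Of 30 other RNA polymerase subunit genes, 13 had a positive and 17 a negative difference (median −0.06). An unadjusted p under 0.05 was found for 8 of them, 3 positive and 5 negative, or 26.7% against 6.21% of all genes tested. The list was chosen with earlier results known, and this comparison, partly confounded with set, is the one in which Polr2h ranked high. These shares are therefore a description only. Znrd1, a polymerase I subunit gene, was at −0.29 ± 0.185 in RH and 0.46 ± 0.187 in WT, and the polymerase III gene Polr3gl at −0.71 ± 0.369 and 0.82 ± 0.375, with the signs of Polr2h. Polr2a, the catalytic subunit gene, had the opposite signs at 0.21 ± 0.159 and −0.42 ± 0.157, with vehicle means of 285 CPM in WT and 226 CPM in RH and metformin means of 199 and 286 CPM. Subunit genes of RNA polymerase II thus had fitted values of either sign. The difference was positive for Polr2a (0.63 ± 0.231), Polr2b (0.71 ± 0.318) and Polr2j (0.09 ± 0.316). It was negative, as for Polr2h, for Polr2c, Polr2d, Polr2e, Polr2f, Polr2g, Polr2i, Polr2k and Polr2l. Those values ran from −0.06 ± 0.233 (Polr2e) to −1.40 ± 1.04 (Polr2l). Of 24 polarity scaffold genes besides Mpp7, 11 had a positive and 13 a negative difference (median −0.07). Pard6a was at −0.50 ± 0.269 in RH and 0.24 ± 0.270 in WT, Cask at 0.58 ± 0.440 and −0.56 ± 0.442, and Dlg4 at 0.28 ± 0.240 and −0.15 ± 0.237.

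**Figure D4:**
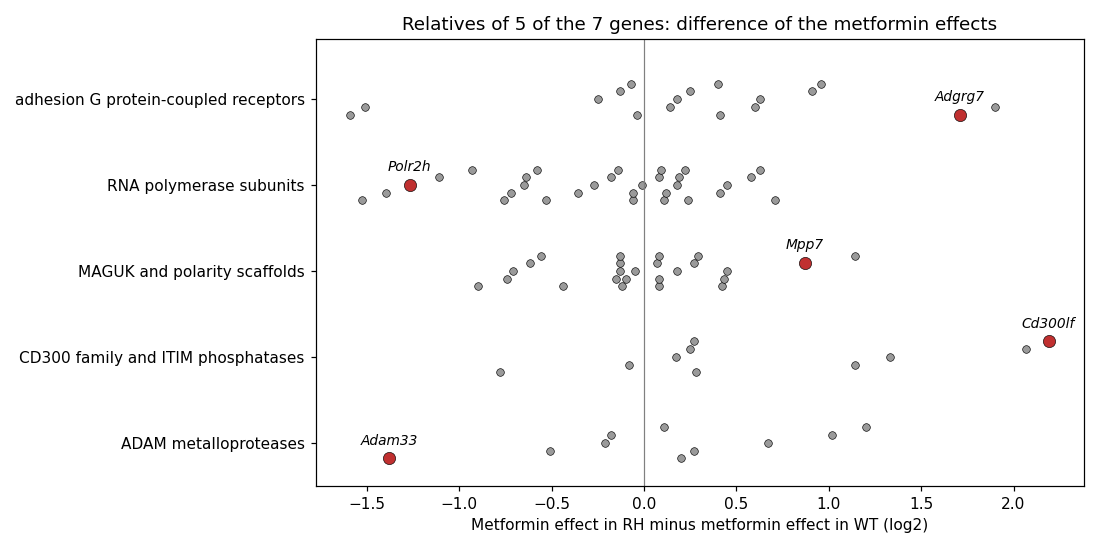
Metformin effect in RH minus that in WT (horizontal axis, log2) for every tested gene of 5 lists of relatives, 1 point per gene, with members in red and relatives in grey; the vertical offset within a list only separates points. Adam33 lies at −1.38, below all 9 tested relatives, whereas RNA polymerase subunit genes lie on both sides of 0.

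The nearest tested gene on each side of a member was read as a local comparison. None of these 14 neighbours passed the threshold for the difference of the metformin effects. The member's sign was seen for 11, but several of these values were smaller than their SE, such as those of Rab18 and Trappc5. That count was not set against genes at large, so it shows nothing about the loci. Beside Mcemp1 (1.45 ± 0.478), Stxbp2 at 22110 bases was at −0.12 ± 0.210 and Trappc5 at 7040 bases at 0.02 ± 0.264. Beside Adgrg7 (1.71 ± 0.460), Tfg at 7159 bases was at 0.24 ± 0.193 and Tmem45a2 at 241112 bases at 1.84 ± 1.53. Tmem45a2 had group means of only 0.181 to 0.311 CPM. Beside Adam33 (−1.38 ± 0.400), Gfra4 at 7503 bases was at −1.45 ± 1.04, with means of 0.376 to 1.06 CPM, and Siglec1 at 5406 bases at 0.79 ± 1.88. Beside Cd300lf (2.19 ± 0.591), Cd300c2 at 114334 bases was at 1.14 ± 1.23 and Slc9a3r1 at 29349 bases at 0.09 ± 0.223. Tmem45a2 and Gfra4, with values near the member's in both size and sign, had SEs above 1. Beside Polr2h (−1.27 ± 0.356), Fam131a at 14617 bases was at −0.46 ± 0.866 and Rps10-ps2 at 99878 bases at −0.41 ± 0.280. Beside Tmem245 (0.89 ± 0.247), Ctnnal1 at 1735 bases was at −0.82 ± 0.512 and Epb41l4b at 44535 bases at 0.05 ± 0.375. Beside Mpp7 (0.87 ± 0.306), Rab18 at 557731 bases was at 0.03 ± 0.163 and Wac at 241969 bases at 0.46 ± 0.275.

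Genes that overlap a member on the other strand were checked because the sources do not state whether counting used strand. Cd300lf lies wholly within Rab37, a small GTPase gene, and the pair share 0 exonic bases in GENCODE M21. Rab37 was at 0.08 ± 0.175 in RH and 0.03 ± 0.176 in WT. Polr2h shares 82 exonic bases with the chloride channel gene Clcn2, where reads cannot be told apart without strand. Clcn2 was at 0.15 ± 0.204 in RH and 0.00 ± 0.205 in WT, unlike Polr2h in both.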

How the data were processed

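Raw read counts per gene were deposited by the authors for 12 libraries and 54532 genes, with a gene length in bases as another annotation value in the same deposited table. STAR 2.5, HTSeq 0.6.1 and mm10 are named, without settings, per the submitters' processing notes. A smaller deposited count table of 8 columns holds 6 of the 12 with unchanged counts (set 1); 2 of its columns were not used. For 7 columns the labels give the group but not the exact sample. No pair of libraries within a group agreed within sampling noise (chi-square per degree of freedom 11.4 to 524).

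Counts were fitted with edgeR 4.0.16 (quasi-likelihood, robust, TMM, filterByExpr) in R 4.3.3, with 4 group means and a set term over all 12 libraries, and adjusted by Benjamini-Hochberg over 15003 genes at a threshold of 0.05. Fold changes and SEs come from this fit. DESeq2 1.42.0 was an alternative, and the code was tested on simulated data. Likeness used log2 CPM (prior count 2) and genes of mean log2 CPM of at least 1. For each member the 3 genes of highest r and the nearest tested gene on either side are named. Of each family the 3 of smallest p for the difference are named, Polr2a among them. Cd300a and the further RNA polymerase II subunit genes were added after their values were seen. 1 CPM stood for 8.37 to 24.8 reads. The members and gene lists were chosen with earlier results of these data known.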

Additional observations from a re-analysis of the deposited data

How the results depend on the processing

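Each value was refitted under 18 alternatives. The metformin effect in RH and the difference of the metformin effects kept their sign in all 126 values each (7 genes, 18 alternatives), the metformin effect in WT in 124 of 126 and the genotype effect in 116 of 126. The 2 changed values in WT were Mpp7 without WT VEH 2 (0.08) and Mcemp1 without WT VEH 3 (0.07). Without 1 library at a time the difference was 1.40 to 2.07 for Adgrg7, 1.68 to 2.52 for Cd300lf, 1.09 to 1.72 for Mcemp1, 0.75 to 1.00 for Mpp7, 0.81 to 1.01 for Tmem245, −1.64 to −1.10 for Adam33 and −1.45 to −1.05 for Polr2h. These fits share most libraries and the members were chosen on them. Counts of all genes called were less stable, and the cause was not tested. With no filter on low counts edgeR called 119 genes for genotype, 229 for metformin in RH, 218 in WT and 431 for the difference. DESeq2 called 17 for genotype and 1 for metformin in WT. Without both libraries of high mitochondrial share the numbers were 3 for genotype, 1 for metformin in RH and 1 for the difference. Leaving out 1 library gave 1 to 2, 0 to 1, 0 to 0 and 0 to 1 for genotype, metformin in RH, in WT and the difference; the 2 came without RH VEH 1, 2 or 3, and the 1 in RH and in the difference without RH VEH 2. No paired analysis was possible because the numbers of most columns do not follow the replicate numbers in the labels. With 24 and 31 reads in its smallest libraries, counting error limits Cd300lf.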
